A study of Mus musculus with 14 samples.

Results

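The 10 genes described here, Neurog3, Sox3, Upp1, Utf1, Cdh1, Pou5f1, Lin28a, Zbtb16, Sall4 and Uchl1, are used to mark progenitor and undifferentiated spermatogonia of the mouse testis. They were chosen by name, with earlier results of these data known, and all 10 were among the 24984 gene symbols of both count tables. Expression was measured by bulk RNA sequencing of c-KIT-positive differentiating spermatogonia, sorted by flow cytometry from testes of C57BL/6J mice, in 14 libraries from 4 groups. In the deletion experiment, 2 animals of genotype Rosa26-CreERT2; Cbx2[Flox/Δ] (iKO) had received tamoxifen, and the 2 controls, Rosa26-CreERT2; Cbx2[Flox/+], were given corn oil alone. Each animal had 3 injections of 200 µL, and the tamoxifen was at 20 mg/mL. Both groups therefore carried the recombinase and a floxed allele, and genotype and drug differed together. Rosa26 drives the recombinase broadly, in somatic as well as germ cells. In the 23KRA experiment, 5 Cbx2[23KRA/23KRA] animals were set against 5 Cbx2[+/+] animals, none of them treated. Cbx2 is a chromatin-binding component of PRC1, a Polycomb complex, and the 23KRA allele puts alanine in place of lysines and arginines in its CaPS domain. The labels give no ages.

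Spermatogonial stem cells renew under the growth factor GDNF, and their daughters pass through a progenitor state in which they divide as connected chains. Retinoic acid then moves progenitors into differentiation, when the receptor tyrosine kinase Kit appears on the surface. Neurog3, Sox3 and Upp1 are markers of the progenitor end of this path, while Zbtb16, Sall4, Lin28a, Cdh1, Utf1 and Uchl1 are used for undifferentiated spermatogonia more widely, and several of these transcripts persist into early differentiation. PRC1 holds developmental genes repressed at CpG-dense promoters.

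Depth was 28169990 to 31166500 gene counts per deletion library and 14562564 to 19814511 per 23KRA library. The deletion libraries were made from polyA RNA and the 23KRA libraries from total RNA with ribosomal cDNA depleted, so levels are set side by side across the experiments without a test. Levels are CPM, counts scaled to library size, and each comparison used edgeR's two-sided quasi-likelihood test within its own experiment, with p-values adjusted over all genes tested. Kit was at 214 and 271 CPM in iKO animals and 203 and 259 CPM in oil controls. It was at 258 ± 27.9 CPM in 23KRA homozygotes and 254 ± 15.7 CPM in wild type (SD, n = 5 each), so the gene used for the sort was abundant in every library. Cbx2 itself, counted over the whole gene, was at 78.5 and 86.5 CPM in iKO animals and 93.9 and 97.7 CPM in oil controls; the log2 fold change was -0.21 with an SE of 0.12 (edgeR adjusted p = 0.971). In 23KRA, where the allele changes residues, Cbx2 was at 64.1 ± 17.4 CPM in homozygotes and 73.0 ± 12.6 CPM in wild type (SD, n = 5 each). The labels do not say which part of the gene the floxed allele removes, so a count over the whole gene does not measure how complete the deletion was.

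None of the 10 genes passed an adjusted p of 0.05 in either comparison. In the deletion, the 0 members called stand beside 0.012% of 16725 genes called, and 1 member, Upp1, had an unadjusted p under 0.05, as did 4.74% of all genes tested. In 23KRA, 0 of 8 members tested passed, beside 0% of 14208 genes, and 0 members had an unadjusted p under 0.05, beside 3.04% of all genes tested. DESeq2 and limma-voom also called 0 members in each comparison. With a block by replicate number, 62 of the 16725 genes were called in the deletion, against 2 without the block. Upp1 was the only member among the 62 (edgeR adjusted p = 0.0192). The member farthest from its control in the deletion was Upp1, at 156% of the control mean. In bulk libraries, fewer cells of a type and less RNA per cell cannot be told apart.

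The stretches just before the start of 3 members are shown because Neurog3 and Upp1 were the members whose deletion groups did not overlap, and because Neurog3 and Utf1 have the CG-richest windows of the 6 members with a RefSeq promoter. Groups without overlap were common, with 17.5% of all genes tested lower and 15.6% higher. The stretches are from RefSeq on GRCm38.p6, 5′ to 3′ on the gene's strand, cut where GENCODE places the first transcribed base, with each CG dinucleotide in capitals.
Neurog3, chr10:62132840-62133089, plus strand: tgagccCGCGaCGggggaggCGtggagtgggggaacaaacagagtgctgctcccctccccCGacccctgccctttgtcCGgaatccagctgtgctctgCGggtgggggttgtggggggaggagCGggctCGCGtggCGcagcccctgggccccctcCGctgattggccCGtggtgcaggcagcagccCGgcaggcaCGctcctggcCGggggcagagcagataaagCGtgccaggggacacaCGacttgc
Upp1, chr11:9117853-9118102, plus strand: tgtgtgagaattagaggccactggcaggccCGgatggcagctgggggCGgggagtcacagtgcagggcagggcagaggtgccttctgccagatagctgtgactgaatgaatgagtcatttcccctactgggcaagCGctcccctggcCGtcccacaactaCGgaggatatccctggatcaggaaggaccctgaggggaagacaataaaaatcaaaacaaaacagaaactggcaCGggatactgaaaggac
Utf1, chr7:139943606-139943788, plus strand: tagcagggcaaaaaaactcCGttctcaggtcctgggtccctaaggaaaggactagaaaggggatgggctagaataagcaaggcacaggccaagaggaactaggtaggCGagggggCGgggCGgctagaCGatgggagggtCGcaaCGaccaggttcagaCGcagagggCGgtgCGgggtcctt

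CG was counted over the 250 bases before each RefSeq start, where it reads the same on both strands. The Neurog3 window holds 18 CG, as many as or more than which were found in 21.7% of 32841 such windows. Over its full 250 bases the Utf1 window holds 14 CG (29.4% of windows hold as many) and the Upp1 window shown holds 6 (50.4%). RefSeq gives Upp1 a total of 3 starts, and the window before the most downstream one holds 10 CG (37.8%). Of the others, the Lin28a and Uchl1 windows hold 7 CG each (46.3%), and the 2 Pou5f1 windows hold 8 (43.0%) and 6 (50.4%). With CpG-rich taken as over 50% G and C and an observed-over-expected CpG ratio over 0.6, 2 of the 9 windows of these 6 members qualify, 1 each of Upp1 and Utf1, beside 30.8% of all windows.

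Levels between genes were compared per kilobase of annotated exon. Uchl1, which encodes a ubiquitin C-terminal hydrolase abundant in undifferentiated germ cells, was highest in every group, at 295 ± 6.63 CPM per kb in iKO animals and 295 ± 28.2 CPM per kb in oil controls (SD, n = 2 each). It was 14.3 times the next member in iKO animals and 12.4 times in oil controls. In oil controls the order below it was Sox3 at 23.7, Sall4 at 14.8, Lin28a at 9.17, Zbtb16 at 6.39 and Upp1 at 3.80 CPM per kb, with no overlap between neighbours. Utf1 at 1.62, Neurog3 at 1.30 and Pou5f1 at 1.13 CPM per kb overlapped in turn, and Cdh1 was lowest at 0.656 CPM per kb. The order was the same in iKO animals, except that Zbtb16 (6.26) and Upp1 (5.91 CPM per kb) overlapped and Pou5f1 stood above Neurog3.

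In the 23KRA experiment the members stood at 3 levels per kilobase. Uchl1 was at 179.6 ± 20.2 CPM per kb in homozygotes and 183 ± 17.7 CPM per kb in wild type (SD, n = 5 each). Zbtb16, Sall4, Sox3 and Lin28a formed a middle level, at 10.6 to 13.4 CPM per kb in homozygotes and 9.80 to 14.8 CPM per kb in wild type, with overlap between every pair of neighbours. The other 5, Upp1, Pou5f1, Cdh1, Neurog3 and Utf1, were at 0.328 to 1.33 CPM per kb in homozygotes and 0.391 to 1.12 CPM per kb in wild type, again with overlap between neighbours. Zbtb16 stood below Sox3, Sall4 and Lin28a in the deletion controls and above all of them in the 23KRA wild type. That shift was between kits and animals at once and was not tested.

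**Figure D1:**
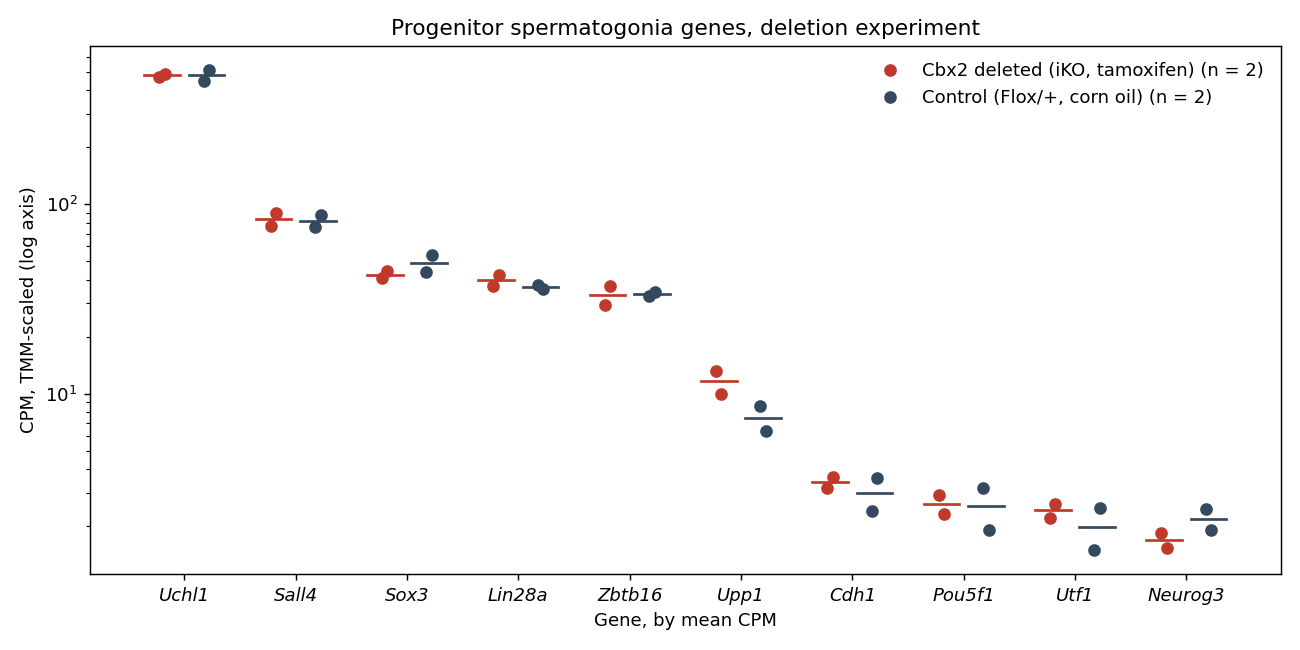
Level of each gene in every library of the deletion experiment, in CPM on a log axis, with a point per library and a bar at the group mean (iKO left of control, n = 2 each). The groups overlap for 8 genes. Both iKO points lie above both control points for Upp1 (9.94 to 13.2 against 6.32 to 8.57 CPM) and below them for Neurog3. Of all genes tested, 15.6% were higher and 17.5% lower without overlap.

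The members tied to the progenitor state itself were Neurog3, Sox3 and Upp1. Neurog3, a basic helix-loop-helix transcription factor (chromosome 10, 62133090 to 62134763, plus strand of GRCm38, 1 exon), had 1.83 and 1.53 CPM in iKO animals, against 2.44 and 1.91 CPM in oil controls. Both iKO libraries were below both controls, from counts of only 44 to 69 per library, and the log2 fold change of -0.37 did not pass (SE 0.31; 95% interval -1.01 to 0.27; edgeR adjusted p = 0.971). Groups that did not overlap were common with 2 libraries a side: 17.5% of all genes tested were lower in this sense and 15.6% higher. Neurog3 shares exonic positions with Fam241b on the other strand, and the strand setting of the counting is not given in the sources used here. Fam241b was at 24.0 and 20.9 CPM in iKO animals and 19.6 and 18.6 CPM in oil controls, and both iKO values were above both control values.

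Sox3, an X-linked transcription factor that progenitors need to enter differentiation (60891366 to 60893430, minus strand of GRCm38, 1 exon), had 40.7 and 44.5 CPM in iKO animals, against 43.7 and 54.1 CPM in oil controls. The ranges overlapped, and the log2 fold change was -0.20 (SE 0.13; 95% interval -0.47 to 0.07; edgeR adjusted p = 0.971). These intervals are for each gene by itself, without adjustment over genes.

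Upp1, which encodes uridine phosphorylase 1, an enzyme of pyrimidine salvage (chromosome 11, 9118103 to 9136170, plus strand of GRCm38), had 13.2 and 9.94 CPM in iKO animals, against 8.57 and 6.32 CPM in oil controls. Both iKO libraries were above both controls, at means of 11.6 ± 2.34 CPM in iKO animals and 7.45 ± 1.59 CPM in oil controls (SD, n = 2 each). The log2 fold change was 0.64 (SE 0.19), with a 95% interval of 0.25 to 1.03, or 1.19 to 2.04 fold. Its unadjusted p of 0.00230 ranked 35 of 16725 genes, and it did not pass after adjustment (edgeR adjusted p = 0.971). Without iKO replicate 2, the log2 fold change was 0.83, and over leaving out each of the 4 libraries it ran from 0.42 to 0.88. Each of these fits has a single animal in 1 group, which is assumed to vary like the 2 animals of the other group.

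Markers of other cells also differed between these 4 libraries. Summed over 8 macrophage markers, the level was 92.9 and 47.0 CPM in iKO animals and 59.9 and 50.2 CPM in oil controls. Most of it was Cd74 (means of 24.5 CPM in iKO animals and 17.0 CPM in oil controls) and H2-Ab1 (35.5 and 28.5 CPM). Of the 8, 6 log2 fold changes were above 0 and 2 below. Summed over 10 Sertoli markers, the level was 321 and 296 CPM in iKO animals and 298 and 279.7 CPM in oil controls. Most of it was Ctsl (means of 202 CPM in iKO animals and 180 CPM in oil controls) and Clu (83.0 and 86.1 CPM). Of the 9 Sertoli markers tested, 5 log2 fold changes were above 0 and 4 below. The sum over 7 Leydig markers was 12.8 and 14.4 CPM in iKO animals and 22.8 and 17.9 CPM in oil controls. Over 8 spermatid genes it was 2932 and 3377 CPM in iKO animals and 3417 and 3753 CPM in oil controls. The groups did not overlap for the Leydig or the spermatid sum, and 17.5% of all single genes tested were lower without overlap. They overlapped for 6 peritubular myoid markers (64.2 and 73.3 CPM in iKO animals, 71.4 and 72.5 CPM in oil controls). The same held for 6 endothelial markers (37.7 and 32.6 CPM in iKO animals, 34.3 and 33.6 CPM in oil controls). Gene by gene, 1 Leydig marker had a log2 fold change above 0 and 6 below, and 0 spermatid genes were above 0 and 8 below. Of all 16725 genes tested, 8524 were below 0. In 23KRA, too, 0 spermatid genes were above 0 and 8 below. Of all these markers, 1 passed, the steroidogenic Leydig gene Cyp17a1, at 1.66 ± 0.281 CPM in iKO animals and 6.07 ± 1.84 CPM in oil controls (edgeR adjusted p = 0.00315). None of these markers was at 0 in all 4 libraries, and their part in the Upp1 values was not tested.

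The pluripotency-associated members, Pou5f1 and Utf1, were among the 4 members under 5 CPM in every deletion library, with Neurog3 and Cdh1. Pou5f1, which encodes the POU factor OCT4 (chromosome 17, 35506018 to 35510772, plus strand of GRCm38), had 2.92 and 2.30 CPM in iKO animals, against 3.19 and 1.91 CPM in oil controls. Utf1, a chromatin-associated protein gene of pluripotent cells and early undifferentiated spermatogonia (chromosome 7, 139943789 to 139945112, plus strand of GRCm38), had 2.21 and 2.62 CPM in iKO animals, against 1.49 and 2.48 CPM in oil controls. Both pairs of groups overlapped. The log2 fold change was 0.04 for Pou5f1 (95% interval -0.55 to 0.64) and 0.28 for Utf1 (95% interval -0.35 to 0.90). The upper ends come to 1.55 fold for Pou5f1 and 1.87 fold for Utf1.

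Zbtb16 and Sall4 encode zinc finger transcription factors that bind each other and act in the maintenance of undifferentiated spermatogonia. Zbtb16, whose product is PLZF (chromosome 9, 48654297 to 48836222, minus strand of GRCm38), had 29.3 and 36.8 CPM in iKO animals, against 32.9 and 34.6 CPM in oil controls. The control values lay inside the iKO range, and the log2 fold change was -0.03 (SE 0.14; 95% interval -0.32 to 0.26). Sall4 (chromosome 2, 168748332 to 168767943, minus strand of GRCm38) had 76.8 and 90.5 CPM in iKO animals, against 76.1 and 87.8 CPM in oil controls, a log2 fold change of 0.03 (SE 0.12; 95% interval -0.22 to 0.28). Within each group the Sall4 values were farther apart than the group means. Pou5f1, Lin28a, Sall4 and Uchl1, like Neurog3, overlap an exon of a gene on the other strand; for Uchl1 that gene, Uchl1os, had at most 2.48 CPM in any library, and the other 3 partners are not rows of the tables.

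Lin28a encodes an RNA-binding protein that blocks maturation of the let-7 microRNAs (chromosome 4, 134003330 to 134018841, minus strand of GRCm38). It had 37.1 and 42.6 CPM in iKO animals, against 37.6 and 35.7 CPM in oil controls, a log2 fold change of 0.12 (SE 0.13; 95% interval -0.15 to 0.39). Cdh1, which encodes the adhesion protein E-cadherin (chromosome 8, 106603351 to 106670246, plus strand of GRCm38), had 3.16 and 3.63 CPM in iKO animals, against 2.41 and 3.59 CPM in oil controls, a log2 fold change of 0.17 (SE 0.26; 95% interval -0.36 to 0.70). Uchl1 (chromosome 5, 66676091 to 66687234, plus strand of GRCm38) had 474 and 489 CPM in iKO animals, against 448 and 513 CPM in oil controls. The iKO values of Uchl1 lay inside the control range, its log2 fold change was 0.00 (SE 0.11), and its interval ran from 0.860 to 1.17 fold, the narrowest of the 10. For 8 of the 10 members the interval lay within a change of 2 fold either way; Neurog3 and Upp1 were the exceptions.

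**Figure D2:**
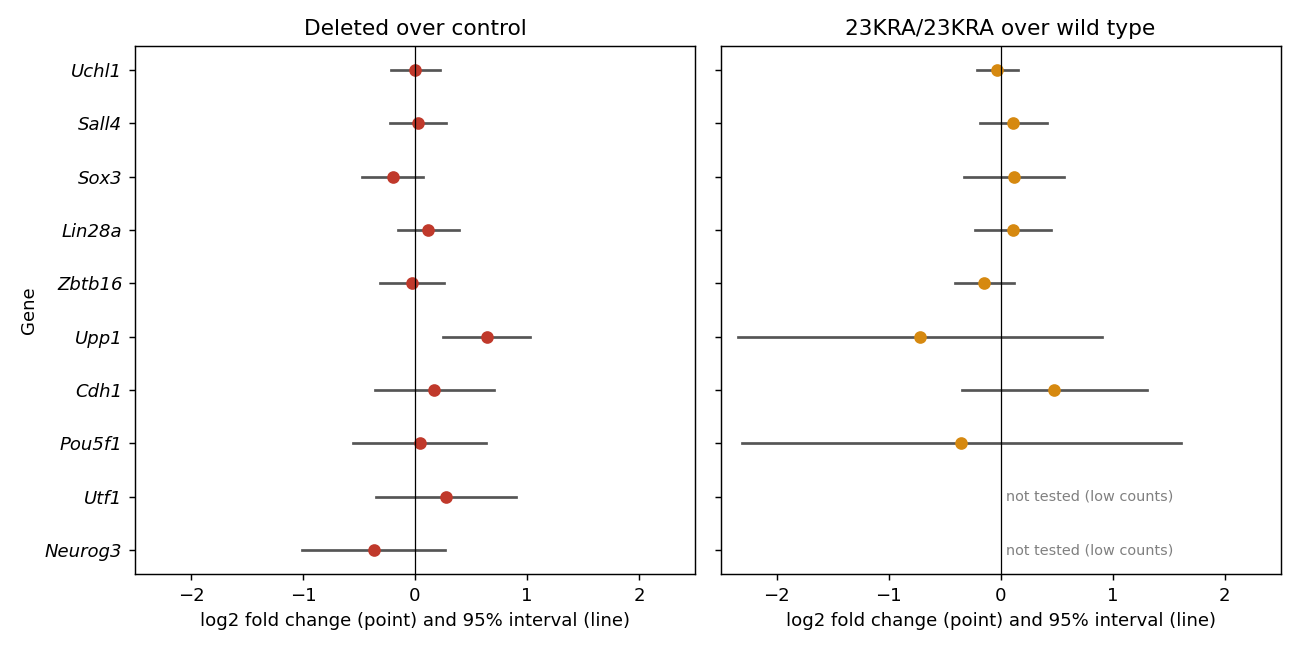
Log2 fold change of each gene (point) with its 95% interval (line), deleted over control on the left and 23KRA/23KRA over wild type on the right, genes ordered by CPM in the deletion experiment. Intervals widen toward the low genes at the bottom; the only interval that leaves out 0 is that of Upp1 in the deletion, which did not pass after adjustment over all genes.

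With all 10 members tested in the deletion, 7 log2 fold changes were above 0 and 3 below, with a median of 0.03, beside a median of 0.00 and 49.0% above 0 among all 16725 genes. Of the related lists, 0 of 11 tested genes of the GDNF-responsive stem cell list passed (6 above 0, 5 below, median 0.05). Its most abundant genes were Gfra1, the GDNF co-receptor, at 9.35 CPM in iKO animals and 9.44 CPM in oil controls, and the ETS factor gene Etv5 at 9.39 CPM in iKO animals and 8.85 CPM in oil controls. In the list of other undifferentiated and progenitor genes 0 of 12 passed (7 above 0, 5 below, median 0.05). There Taf4b, a TFIID subunit gene, was at 398 CPM in iKO animals and 371 CPM in oil controls, and the adhesion gene Epcam was at 213 CPM in iKO animals and 223 CPM in oil controls. Of 11 differentiating spermatogonia genes, 0 passed (8 above 0, 3 below, median 0.03), with Nxf2, an X-linked RNA export gene, at 678 CPM in iKO animals and 600.5 CPM in oil controls, and the meiotic entry gene Stra8 at 564 CPM in iKO animals and 536 CPM in oil controls. By edgeR, 0 of the first 2 lists and 1 of the last had an unadjusted p under 0.05.

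In the 23KRA experiment, the count filter kept 8 of the 10 members, and Neurog3 and Utf1 did not have enough counts to be tested. The 4 progenitor and undifferentiated genes of the middle level, with Uchl1, were measured most precisely. Uchl1 ran from 255 to 329 CPM (median 286) in homozygotes and from 270.1 to 346 CPM (median 288) in wild type, a log2 fold change of -0.03 (SE 0.09; 95% interval -0.21 to 0.15). Homozygous replicates 1 to 5 had 325, 255, 329, 271 and 286 CPM of Uchl1, and wild-type replicates 1 to 5 had 306, 346, 288, 270.1 and 287 CPM. The groups overlapped over most of their range.

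Zbtb16 had 66.4, 63.1, 78.3, 71.1 and 75.1 CPM in homozygous replicates 1 to 5, against 93.6, 65.0, 95.5, 63.7 and 73.3 CPM in wild-type replicates 1 to 5. Wild-type replicates 1 and 3 stood above every homozygous library, and the other wild-type libraries lay among them. The log2 fold change was -0.14 (SE 0.13; 95% interval -0.41 to 0.12; edgeR adjusted p = 1.00).

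Sall4 had 75.3, 58.3, 83.1, 48.3 and 56.1 CPM in homozygotes, against 62.4, 50.4, 62.5, 53.0 and 68.6 CPM in wild type, in the same order of replicates. Lin28a had 54.6, 37.3, 50.5, 36.6 and 32.0 CPM in homozygotes, against 40.9, 44.6, 30.9, 41.7 and 37.7 CPM in wild type. Sox3 had 29.1, 14.9, 28.0, 22.2 and 26.2 CPM in homozygotes, against 19.1, 18.4, 29.6, 17.2 and 26.4 CPM in wild type. Homozygous replicates 1 and 3 held the highest homozygous values of all these, and all groups overlapped. The log2 fold changes were 0.11 for Sall4 (SE 0.14; 95% interval -0.19 to 0.41), 0.11 for Lin28a (SE 0.16; 95% interval -0.23 to 0.45) and 0.12 for Sox3 (SE 0.21; 95% interval -0.33 to 0.57).

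**Figure D3:**
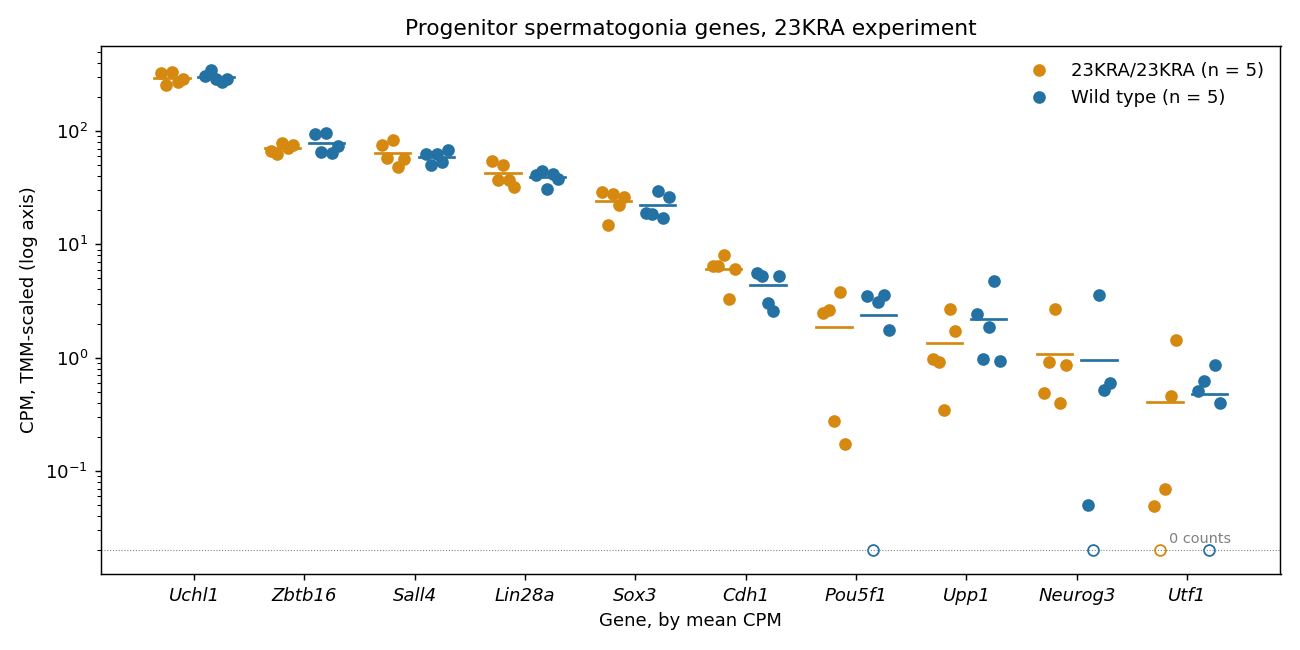
Level of each gene in every library of the 23KRA experiment, in CPM on a log axis, with a point per library and a bar at the group mean (23KRA/23KRA left of wild type, n = 5 each); open points on the dotted line are libraries with 0 counts. Groups overlap for all 10 genes, and the spread grows from Uchl1 on the left to Utf1 on the right.

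Cdh1 was at 6.49, 6.46, 8.13, 3.31 and 6.08 CPM in homozygous replicates 1 to 5, against 5.64, 5.27, 3.02, 2.60 and 5.30 CPM in wild-type replicates 1 to 5. Apart from replicate 4, each homozygous library was above every wild-type library. The log2 fold change of 0.48 was the highest of the 8 members tested and did not pass (SE 0.40; 95% interval -0.35 to 1.31; edgeR adjusted p = 1.00). No member had groups without overlap in 23KRA, where 0.436% of all genes tested were higher and 0.274% lower without overlap.

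Upp1 had 0.984, 0.923, 0.345, 2.71 and 1.72 CPM in homozygotes, against 2.42, 0.970, 1.87, 4.80 and 0.938 CPM in wild type, in the order of replicates 1 to 5. Its log2 fold change was -0.72 (SE 0.78), with an interval of -2.34 to 0.91 that holds 0 and also the value fitted in the deletion. The difference of the Upp1 effects, deletion minus 23KRA, was 1.34 (SE 1.03; 95% interval -0.82 to 3.50; edgeR adjusted p = 1.00), fitted over all 14 libraries together. The same test of the difference called 0% of 17227 genes and 0 of the 10 members, and DESeq2 and limma-voom called 0 members. Both experiments share 1 estimate of spread in that fit, although the 23KRA libraries vary more.

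Pou5f1, Neurog3 and Utf1 were scattered between 23KRA libraries of the same genotype. Pou5f1 had 50, 40, 4, 58 and 3 counts in homozygous replicates 1 to 5, against 70, 0, 48, 62 and 26 counts in wild-type replicates 1 to 5. In CPM this is 0.172 to 3.84 in homozygotes (median 2.46), against 0 to 3.58 in wild type (median 3.09), where 3 counts, taken as the limit that a count of 0 allows, come to 0.208 CPM in the wild-type library at 0. The log2 fold change was -0.35 (SE 0.94; 95% interval -2.31 to 1.61).

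Neurog3 had 10, 14, 39, 6 and 15 counts in homozygotes, against 1, 0, 56, 9 and 9 counts in wild type, in the order of replicates 1 to 5. Replicate 3 was the highest library of each group, at 2.69 CPM in homozygotes and 3.60 CPM in wild type. Permuting the 5 homozygous and 5 wild-type labels exactly gave a two-sided p = 0.865 for Neurog3, where the smallest possible is 0.00794. Utf1 had 1, 0, 1, 7 and 25 counts in homozygotes, against 10, 9, 0, 15 and 6 counts in wild type (exact two-sided permutation p = 0.873). The means were 0.403 ± 0.605 CPM in homozygotes and 0.479 ± 0.319 CPM in wild type (SD, n = 5 each), less than the spread of either group apart.

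**Figure D4:**
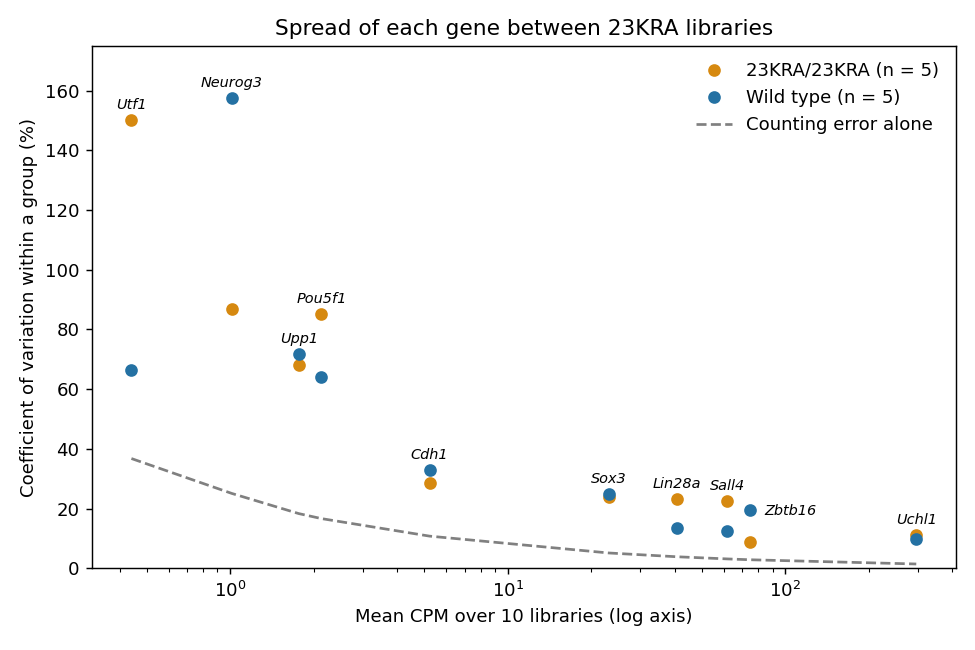
Coefficient of variation of each gene between the 5 libraries of a 23KRA group, in percent, against its mean CPM over the 10 libraries on a log axis; the dashed line is the variation that counting error alone would give at each gene's mean count. All points lie above the line, from 8.74% for Zbtb16 in homozygotes to 157% for Neurog3 in wild type.

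The spread between animals of a group was larger than counting error for all 10 members in 23KRA, and its share of the mean was larger for the low members. Neurog3 averaged 15.9 counts per 23KRA library, for which counting error alone gives a coefficient of variation of 25.1%, and the measured values were 86.9% in homozygotes and 157% in wild type. For Pou5f1, counting error gives 16.6%, and the measured values were 85.2% in homozygotes and 64.0% in wild type. For Uchl1, the most abundant member, counting error gives 1.43%, and the measured values were 11.2% in homozygotes and 9.66% in wild type. In the deletion libraries, Neurog3 averaged 56.3 counts (counting error 13.3%) and varied by 12.3% in iKO animals and 17.5% in oil controls. Pou5f1 averaged 74.8 counts there (counting error 11.6%) and varied by 16.7% in iKO animals and 35.6% in oil controls (n = 2 each). Per library, 14958 to 17330 genes were detected in 23KRA and 19822 to 19976 in the deletion. The wild-type library with 0 counts of both Pou5f1 and Neurog3, replicate 2, had the fewest genes detected; the part of library make-up in these zeros was not tested.

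Among the 8 members tested in 23KRA, 4 log2 fold changes were above 0 and 4 below, with a median of 0.04, beside a median of 0.00 and 50.8% above 0 among all 14208 genes. For 5 of the 8 the interval lay within a change of 2 fold either way, and Upp1, Cdh1 and Pou5f1 were the exceptions. Of 13 GDNF-responsive stem cell genes only 5 could be tested and 0 passed (2 above 0, 3 below, median -0.10), with Etv5 at 4.55 CPM in homozygotes and 6.10 CPM in wild type, and Id4, an inhibitor of DNA binding, at 2.48 CPM in homozygotes and 3.26 CPM in wild type. In the list of other undifferentiated and progenitor genes 0 of 11 passed (6 above 0, 5 below, median 0.01). Taf4b was at 228 CPM in homozygotes and 217 CPM in wild type, and Lin28b, the paralog of Lin28a, was at 158 CPM in homozygotes and 153 CPM in wild type. Of 11 differentiating genes, 0 passed (3 above 0, 8 below, median -0.04), with Stra8 at 666 CPM in homozygotes and 726 CPM in wild type and Tex14, a gene of the bridges between germ cells, at 439 CPM in homozygotes and 440.4 CPM in wild type. By edgeR, 0 genes of these 3 lists had an unadjusted p under 0.05.

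Summed over the 10 members, the level was 681 and 723 CPM in iKO animals and 657 and 742 CPM in oil controls. The sum was 505 ± 62.4 CPM in homozygotes (439 to 581) and 509 ± 30.9 CPM in wild type (458 to 534; SD, n = 5 each). Uchl1 made up most of these sums, and the groups overlapped in both experiments.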

How the data were processed

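The authors deposited raw counts per gene for 24984 symbols in a table for each experiment, and no other unit was used. Per the submitters' processing notes, the tools were Trim Galore 0.4.3, STAR 2.5.3, SAMtools 1.4.1 and featureCounts of Subread 1.5.0, with build mm10. The annotation, the strand setting and the handling of multiply mapped reads are not stated in those notes or the labels. The kits differed between experiments, so each was fitted by itself. Genes were filtered with filterByExpr (minimum count 10), scaled by TMM and tested with edgeR 4.0.16 (quasi-likelihood, R 4.3.3) with Benjamini-Hochberg adjustment over all genes tested, at a threshold of 0.05. CPM used the TMM-scaled library size. The difference of effects was a contrast in a fit of all 14 libraries. Lengths were merged exons of the GENCODE annotation of GRCm38, found for 98.1% of symbols. Alternatives used DESeq2 1.42.0, limma 3.58.1, other scalings, no filter, a replicate block and left-out libraries. The procedure that made the calls was tested on simulated data. In the deletion design it recovered 49.0% of 1.5-fold and 74% of 2-fold changes. In the 23KRA design it recovered 29.2% of 1.5-fold and 51.0% of 2-fold changes. A change of this size in a member could therefore go uncalled. The simulated data held up to 50 changed genes at each size from 1.25 to 4 fold, drawn over all expression levels. With fewer changed genes the adjustment over all genes is harder to pass, so recovery in the real data may be lower. The labels give equal numbers of animals and libraries in each group. The members and the gene lists were chosen with earlier results of these data known. Named genes were all members, Cbx2 and Kit, and in each other list the genes that passed or else the 2 most abundant. RefSeq promoters matched 6 of the 10 members; Sox3, Cdh1, Zbtb16 and Sall4 had no entry in the table.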

Additional observations from a re-analysis of the deposited data

Results flagged for a closer look

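Neurog3 had 1 library far from the others in each 23KRA group. Homozygous replicate 3 had 2.69 CPM, where the other 4 homozygotes had 0.397 to 0.923 CPM, and the gap was 0.770 of the group's range. Wild-type replicate 3 had 3.60 CPM, where the other 4 wild-type libraries had 0 to 0.603 CPM, and the gap was 0.833 of the range. The critical value for 5 samples is 0.71, and 20 groups were examined (10 members in 2 groups of the 23KRA experiment). Chance alone flags about 1 in 20 where values follow a normal distribution. For genes with counts as low and uneven as those of Neurog3 the rate may be higher.

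The same libraries had the highest sum of the 8 macrophage markers in their groups. That sum was 34.4 CPM in homozygous replicate 3, where the group's range was 14.4 to 34.4 CPM, and 138 CPM in wild-type replicate 3, where the range was 8.18 to 138 CPM. None of the 8 markers was at 0 in every library. The sums of several marker lists were looked over, and among several lists a shared peak in both libraries can arise by chance. The GDNF-responsive list was highest of its group in wild-type replicate 3 (19.2 CPM) and lowest in homozygous replicate 3 (11.6 CPM). Fam241b, which shares exonic positions with Neurog3 on the other strand, was at 1.24 CPM in homozygous replicate 3, the lowest of its group, and at 4.50 CPM in wild-type replicate 3, the highest of its group. The part of macrophage RNA or of Fam241b in the Neurog3 values was not tested.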

How the results depend on the processing

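The 0 members called held under every alternative of the 23KRA comparison and of the difference between experiments. In the deletion, 1 member was called with the replicate block, Upp1 (log2 fold change 0.64, edgeR adjusted p = 0.0192), and leaving out 1 library in turn gave 0 to 1 members. Genes called in the deletion numbered 8 without a filter, 1 by DESeq2, 1 by limma-voom, 0 by limma-voom with quality weights and 62 with the replicate block, against 2 as reported, and 2 to 73 when a library was left out; 73 was without iKO replicate 2. In 23KRA the replicate block gave 2 genes, against 0. The labels do not say whether the replicate numbers pair the animals, and the main fits did not pair them. In 23KRA same-numbered libraries correlated at -0.01 to 0.22 over the residual log CPM, and 4 of 5 correlated best with their own number. The deletion has only 2 pairs, which share 1 correlation of 0.16. These values do not settle whether the numbers mark pairs, and the Upp1 call in the deletion depends on that choice.

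Neurog3, Sox3, Upp1 and Lin28a kept their direction in the deletion under all 11 alternatives. Upp1 was at 0.42 to 0.88 with a library left out. Its groups did not overlap, so leaving out a library could hardly reverse it, and the same holds for Neurog3. Other values, many of them close to 0, changed sign. Uchl1 came to -0.0019 in the deletion without a filter, 0.027 in 23KRA without wild-type replicates 2 and 3 (the libraries lowest in genes detected), and -0.040 in the difference without them. The Lin28a difference, -0.01 as reported, was 0.0048 with DESeq2 size factors, 0.018 with upper-quartile scaling, 0.0070 without a filter, 0.0047 by DESeq2, 0.0058 by limma-voom, 0.086 with quality weights and 0.030 without those 2 libraries. With a library left out, the deletion values that changed sign ran from -0.070 to 0.49 for Cdh1, -0.29 to 0.46 for Pou5f1, -0.096 to 0.15 for Sall4, -0.082 to 0.10 for Uchl1, -0.027 to 0.70 for Utf1 and -0.21 to 0.13 for Zbtb16. Those in 23KRA ran from -0.011 to 0.19 for Lin28a, -0.0041 to 0.20 for Sall4 and -0.083 to 0.027 for Uchl1. The differences ran from -0.11 to 0.12 for Lin28a, -2.24 to 0.12 for Neurog3, -0.23 to 0.011 for Sall4, -0.079 to 0.11 for Uchl1 and -0.078 to 0.25 for Zbtb16. The cause of these changes was not tested.

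Leaving out a deletion library leaves 1 animal in its group, assumed to vary like the other group. The deletion has 2 animals a group, and in 23KRA the Upp1 interval runs from -2.34 to 0.91, with 5 to 83 counts per library.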

Other observations

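Within the deletion experiment, replicate 2 differed from replicate 1 in the same direction in the iKO pair and the oil control pair for 9 of the 10 members, all except Lin28a, beside 60.4% of 16725 genes tested. In 23KRA, homozygous replicates 1 and 3 were above the other 3 homozygotes for 5 of the 10 members (Sox3, Cdh1, Lin28a, Sall4 and Uchl1), beside 12.7% of 14208 genes tested. Both patterns were noticed after the values were seen and are given without a test.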
